A study of Mus musculus with 12 samples.

Results

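The AP-1 transcription factors described here are 9 genes of the FOS, JUN, BATF and ATF3 groups: Fos, Fosb, Fosl1, Fosl2, Jun, Junb, Jund, Batf and Atf3. They were taken by name from the 24346 gene symbols of the deposited files, and all 9 are present in each of the 12 libraries. The libraries hold RNA of mouse marginal zone B cells, which are innate-like B lymphocytes at the border of the splenic follicle. Cells of Trpm5-/- mice and of wild-type mice were kept for 4 h with lipopolysaccharide (LPS, 10 µg/mL), with an antibody to IgM (anti-IgM, 10 µg/mL) or without either, which gives 6 groups of 2 libraries. LPS acts through Toll-like receptor 4, anti-IgM engages the antigen receptor of B cells, and TRPM5 is a monovalent cation channel opened by calcium. The labels give neither the age of the mice nor the deleted part of Trpm5, and nothing states that the paired libraries of each group stem from different mice or cultures; p-values therefore measure only how far these libraries scatter, and that scatter may be technical.

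AP-1 is a dimer of basic leucine zipper proteins that binds DNA at TGANTCA-type sites. FOS proteins do not pair with themselves and need a JUN partner, whereas JUN proteins also pair with one another. BATF lacks a transactivation domain, pairs with JUN proteins and binds together with IRF4 or IRF8 in lymphocytes, and ATF3 is a stress-induced factor that can repress as a dimer with itself. Several of the genes, Fos and Junb among them, are immediate early genes, known for a fast and brief rise of their RNA after a stimulus.

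The promoters of 4 members are shown because the results turn on these genes: Fos and Atf3 differed between the genotypes in opposite directions, and Jun and Batf had the steepest rise with LPS. Each run holds the 150 bases before the RefSeq start of the gene on GRCm38.p6 (the mm10 assembly), read on the strand of the gene. Capitals mark a match to TGANTCA, TGANNTCA or TGACGT on either strand, with N for any base. Fos, at chr12:85473740-85473889 on the plus strand, Atf3, at chr1:191183334-191183483 on the minus strand, Jun, at chr4:95052223-95052372 on the minus strand, and Batf, at chr12:85686570-85686719 on the plus strand, read as follows.
Fos: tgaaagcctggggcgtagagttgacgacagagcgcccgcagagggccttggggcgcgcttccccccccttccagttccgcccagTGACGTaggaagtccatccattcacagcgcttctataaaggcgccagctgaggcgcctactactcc
Atf3: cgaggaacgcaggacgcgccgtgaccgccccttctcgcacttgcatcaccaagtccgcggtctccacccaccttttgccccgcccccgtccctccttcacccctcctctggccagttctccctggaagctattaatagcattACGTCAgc
Jun: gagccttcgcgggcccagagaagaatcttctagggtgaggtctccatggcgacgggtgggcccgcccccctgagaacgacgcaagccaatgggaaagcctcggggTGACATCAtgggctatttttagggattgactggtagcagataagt
Batf: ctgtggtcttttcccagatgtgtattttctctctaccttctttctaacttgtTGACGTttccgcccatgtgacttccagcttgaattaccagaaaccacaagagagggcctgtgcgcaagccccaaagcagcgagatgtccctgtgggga

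None of these 4 windows holds TGANTCA, which is present in 4.24% of the 32851 promoter windows of the same length in the RefSeq table. Fos has TGACGT, part of the cyclic AMP response element, 66 bases before its start, Batf has it 98 bases before its start, and Atf3 has it in the reverse direction 8 bases before its start. TGACGT is present in 5.15% of all windows. Jun has TGACATCA, a TGANNTCA match, 45 bases before its start, and 8.37% of all windows hold such a match; this pattern reads the same on both strands, and no match of one motif overlapped a match of another in these windows. Of the other members in the table, Jund has TGAAATCA 61 bases before its start, and Fosb, Fosl2 and Junb have no match to the 3 patterns. These are matches of letters, not measured binding sites. The RefSeq start is also not the only annotated one. GENCODE starts Atf3 at base 191218039 of chromosome 1 and Jund at base 70698949 of chromosome 8, away from these windows. It starts Batf at base 85686669 of chromosome 12, inside the printed window, so the end of that run lies within the GENCODE gene. Fosb, at base 19310051 of chromosome 7, also starts inside its window. The Fosl2 window lies wholly within the GENCODE gene, which starts at base 32135801 of chromosome 5. Fos and Batf lie on the same chromosome, with 209 kb between the end of Fos and the start of Batf.

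Values are the FPKM that the authors deposited, which are fragment numbers scaled by transcript length and by the size of the library, so levels can be set side by side between genes. Tests ran on log2(FPKM + 1), a scale on which the change of a low gene is understated, over the 10797 genes that reached 1 FPKM in 2 or more libraries. A gene was called at an adjusted p under 0.05 (limma, Benjamini-Hochberg over all 10797 genes, 2-sided). Of the 9 members, 8 were tested and Fosb, below 1 FPKM in every library, was not. The FPKM of a library summed to 563461 to 805373, and Pearson r between the libraries of a group was 0.959 to 0.978 across genes. Trpm5, the targeted gene, was covered by 0 or 1 fragment in each Trpm5-/- library, against 15 and 11 fragments in the wild-type LPS libraries, 2 and 1 with anti-IgM, and 1 and 10 without stimulus. Trpm5 thus set 3 of the 6 wild-type libraries apart, and the 3 with 1 or 2 fragments were not told apart from Trpm5-/- libraries by it. The pan-B markers, 11 of 11 detected, summed to 12930 to 22193 FPKM, whereas the T cell list stayed at no more than 67.9 FPKM and the NK cell, neutrophil and platelet lists at no more than 4.09, 2.88 and 2.42 FPKM. Erythroid genes summed to 249 to 710 FPKM. Dendritic cell genes summed to 125 to 139 FPKM with LPS, 67.7 to 75.1 FPKM with anti-IgM and 45.2 to 57.0 FPKM without stimulus. Stromal and endothelial genes summed to 12.8 to 15.3, 3.79 to 6.44 and 32.7 to 48.5 FPKM in that order. T cell genes summed to 14.5 to 17.1, 53.6 to 67.9 and 23.9 to 26.4 FPKM. The part of these lists in the stimulus differences was not tested.

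Levels ran from 0.173 FPKM, Fosb in an unstimulated Trpm5-/- library, to 373 FPKM, Batf in a Trpm5-/- library with LPS. In unstimulated cells of both genotypes Junb was highest, followed by Jund and Batf, and Fosb was lowest. With LPS the order changed in both genotypes: Batf was highest, Junb came next and Jun rose to the third place above Jund. With anti-IgM Junb led again, followed by Batf. Between neighbours in these orders, the libraries overlapped for Junb and Jund, for Jun and Atf3 and for Fosl1 and Fosl2 in unstimulated Trpm5-/- cells, for Fosl2 and Fosl1 in unstimulated wild-type cells, and for Fos and Jun in wild-type cells with anti-IgM. The libraries of all other neighbours were apart.

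**Figure D1:**
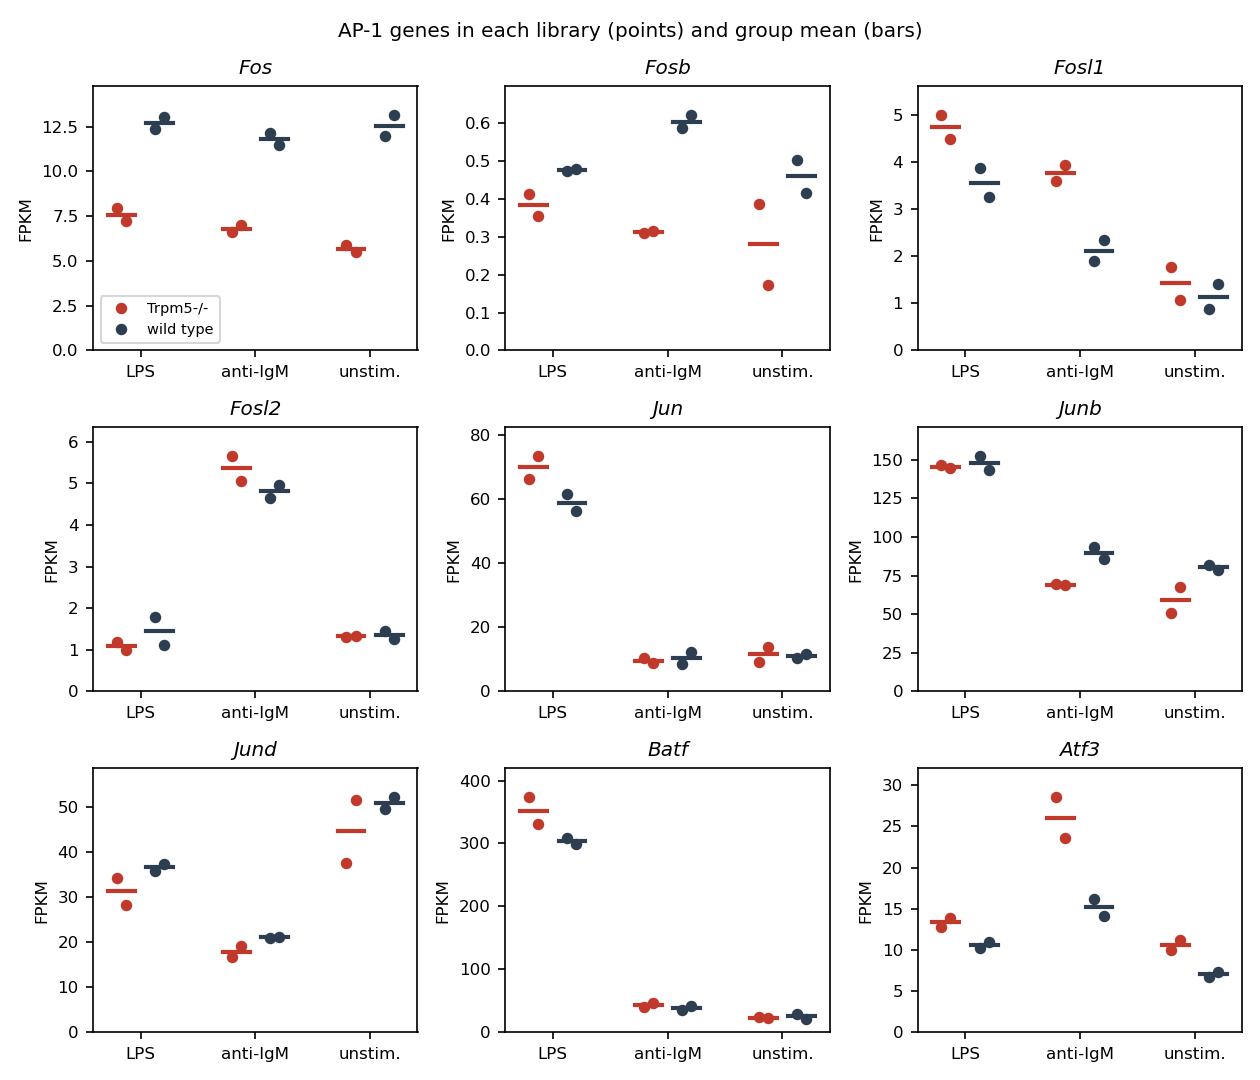
FPKM (linear axis from 0) of the 9 AP-1 genes in each of the 12 libraries, with Trpm5-/- libraries in red at the left of each pair and wild-type libraries in dark blue at the right, and a bar at the mean of the 2 libraries. Fos is lower in every Trpm5-/- library (5.47 to 7.93 FPKM) than in any wild-type library (11.5 to 13.1 FPKM), and Batf and Jun stand far higher with LPS in both genotypes.

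Between the genotypes, Fos was lower and Atf3 higher in the Trpm5-/- libraries of every condition. How many of all genes keep the libraries of the genotypes apart in this way was not counted, here or for the members below. Averaged over the 3 conditions, Fos and Junb were called lower and Atf3 and Fosl1 higher in Trpm5-/- cells, 4 of 8 members, where 16.0% of all genes tested were called, 10.2% higher and 5.88% lower. With LPS 0 of 8 members were called higher, beside 1.82% of all genes, and 1 lower, beside 1.78% (3.59% in either direction). With anti-IgM 1 was called higher, beside 1.91%, and 1 lower, beside 1.92% (3.83% in either direction). In unstimulated cells 1 was called higher, beside 4.45%, and 2 lower, beside 1.66% (6.11% in either direction). The median log2 genotype difference of the 8 members was 0.09 with LPS, 0.01 with anti-IgM and -0.06 in unstimulated cells, beside 0.02, 0.00 and 0.02 for all genes. The samples are bulk RNA, in which fewer cells of a type and less RNA per cell cannot be told apart.

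Fos, the founding member of the FOS subfamily, had 7.93 and 7.25 FPKM in Trpm5-/- cells with LPS, against 12.4 and 13.1 FPKM in wild-type cells with LPS. With anti-IgM it had 6.60 and 6.98 FPKM in Trpm5-/- cells, against 12.1 and 11.5 FPKM in wild-type cells. Without stimulus it had 5.86 and 5.47 FPKM in Trpm5-/- cells, against 11.96 and 13.1 FPKM in wild-type cells. The genotypes did not overlap in any condition, and all 6 Trpm5-/- libraries were below all 6 wild-type libraries. Mean Fos FPKM in Trpm5-/- cells was 0.597 of the wild-type mean with LPS, 0.575 with anti-IgM and 0.452 without stimulus. On the log2(FPKM + 1) scale Fos fell by 0.67 ± 0.10 (SE, adjusted p = 0.0070) with LPS, by 0.72 ± 0.10 (adjusted p = 0.0053) with anti-IgM and by 1.02 ± 0.10 (adjusted p = 0.00082) in unstimulated cells; averaged over the conditions it fell by 0.80 ± 0.06 (adjusted p = 2.5e-05). Each library held 108 to 283 Fos fragments, read from the steps of its FPKM values, 771 in the Trpm5-/- libraries and 1355 in the wild-type libraries. The differences within a condition passed only with the spread estimated over all 12 libraries: from the 4 compared libraries alone the adjusted p was 0.139 with LPS, 0.067 with anti-IgM and 0.055 in unstimulated cells, and without wild-type LPS replicate 2 the LPS difference had an adjusted p of 0.063.

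Of the 4 stimulus differences of Fos, 1 was called. In Trpm5-/- cells with LPS it rose by 0.37 ± 0.10 on the log2(FPKM + 1) scale (adjusted p = 0.010), and the LPS libraries were above the unstimulated ones without overlap. This call was lost from the 4 compared libraries alone (adjusted p = 0.061), without Trpm5-/- LPS replicate 1 (adjusted p = 0.062) and without Trpm5-/- unstimulated replicate 2 (adjusted p = 0.057). In wild-type cells the LPS difference was 0.02 ± 0.10, and the anti-IgM difference was 0.22 ± 0.10 in Trpm5-/- cells and -0.08 ± 0.10 in wild-type cells, none of them called. The Trpm5-/- anti-IgM difference was called with quantile normalization (0.43, adjusted p = 0.0071) and with no mean-variance trend (0.22, adjusted p = 0.048), with adjusted p up to 0.30 over its other alternatives. The difference between the genotypes in the LPS response was 0.35 ± 0.15 (adjusted p = 0.46), with a 95% interval of 0.02 to 0.68 before adjustment for the number of genes.

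Fosb, a close relative of Fos that also needs a JUN partner, was the lowest of the 9. It had 0.414 and 0.355 FPKM in Trpm5-/- cells with LPS, against 0.474 and 0.478 FPKM in wild-type cells with LPS. With anti-IgM it had 0.309 and 0.315 FPKM in Trpm5-/- cells, against 0.587 and 0.620 FPKM in wild-type cells, and without stimulus 0.387 and 0.173 FPKM in Trpm5-/- cells, against 0.504 and 0.417 FPKM in wild-type cells. In each condition both Trpm5-/- libraries were below both wild-type libraries, a separation that was not counted over all genes. With no filter (15928 genes), the limma difference averaged over the conditions was -0.19 ± 0.05 (adjusted p = 0.042). In that fit no single condition was called, with adjusted p of 0.74 with LPS, 0.14 with anti-IgM and 0.29 without stimulus. These values rest on 8 to 22 fragments a library, 70 in Trpm5-/- and 106 in wild-type libraries.

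Fosl1 and Fosl2 encode FRA1 and FRA2, FOS proteins without the transactivation domain of FOS. Fosl1 had 4.99 and 4.48 FPKM with LPS in Trpm5-/- cells, where it had 3.61 and 3.93 FPKM with anti-IgM and 1.78 and 1.08 FPKM without stimulus. In wild-type cells its level was 3.87 and 3.26 FPKM with LPS, 1.89 and 2.35 FPKM with anti-IgM and 0.873 and 1.40 FPKM without stimulus. Both stimuli thus raised it in both genotypes with no overlap of libraries: with LPS by 1.25 ± 0.19 in Trpm5-/- cells (adjusted p = 0.00018) and by 1.10 ± 0.19 in wild-type cells (adjusted p = 0.00045), and with anti-IgM by 0.99 ± 0.19 in Trpm5-/- cells (adjusted p = 0.0017) and by 0.55 ± 0.19 in wild-type cells (adjusted p = 0.035). The wild-type anti-IgM call was lost from the 4 compared libraries alone (adjusted p = 0.074), with no filter (adjusted p = 0.063) and without wild-type unstimulated replicate 1 (adjusted p = 0.21), wild-type anti-IgM replicate 1 (adjusted p = 0.054) or wild-type anti-IgM replicate 2 (adjusted p = 0.17). Averaged over the conditions Fosl1 was higher in Trpm5-/- cells, by 0.38 ± 0.11 (adjusted p = 0.044), and this call was lost under 13 of 18 alternatives, among them the fit with a replicate block (adjusted p = 0.058). Within a condition its genotype difference was 0.33 ± 0.19 with LPS, 0.61 ± 0.19 with anti-IgM and 0.18 ± 0.19 without stimulus, none called. Fosl1 rests on 16 to 76 fragments a library and overlaps Ccdc85b on the opposite strand (2.92 to 9.07 FPKM).

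Fosl2 had 1.18 and 0.985 FPKM with LPS in Trpm5-/- cells, where it had 5.65 and 5.07 FPKM with anti-IgM and 1.31 and 1.33 FPKM without stimulus. In wild-type cells its level was 1.79 and 1.12 FPKM with LPS, 4.66 and 4.96 FPKM with anti-IgM and 1.46 and 1.27 FPKM without stimulus. Fosl2 was high in the anti-IgM libraries alone. With anti-IgM it rose by 1.45 ± 0.17 in Trpm5-/- cells (adjusted p = 4.5e-05) and by 1.30 ± 0.17 in wild-type cells (adjusted p = 9.9e-05), which is a 4.05-fold and a 3.53-fold ratio of mean FPKM. The LPS difference was -0.16 ± 0.17 in Trpm5-/- cells and 0.04 ± 0.17 in wild-type cells, neither called. With quantile normalization the wild-type difference was 0.50 and called (adjusted p = 0.022), and over its other alternatives it was not called. Set directly against anti-IgM, LPS gave a Fosl2 level lower by 1.61 ± 0.17 in Trpm5-/- cells (adjusted p = 2.1e-05) and lower by 1.26 ± 0.17 in wild-type cells (adjusted p = 0.00012).

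Jun, the partner of FOS in the classical AP-1 dimer, had 66.4 and 73.3 FPKM with LPS in Trpm5-/- cells, where it had 10.3 and 8.81 FPKM with anti-IgM and 9.28 and 13.9 FPKM without stimulus. In wild-type cells its level was 61.6 and 56.1 FPKM with LPS, 8.60 and 12.3 FPKM with anti-IgM and 10.5 and 11.7 FPKM without stimulus. Jun was thus high in the 4 LPS libraries, and the other libraries had 8.60 to 13.9 FPKM. Their groups overlapped, except Trpm5-/- cells with anti-IgM and unstimulated wild-type cells, which were narrowly apart. With LPS it rose by 2.52 ± 0.19 in Trpm5-/- cells (adjusted p = 7.2e-07) and by 2.31 ± 0.19 in wild-type cells (adjusted p = 1.3e-06), ratios of mean FPKM of 6.03 and 5.31. The anti-IgM difference was -0.24 ± 0.19 in Trpm5-/- cells and -0.10 ± 0.19 in wild-type cells, neither called. With LPS the Trpm5-/- libraries were above the wild-type libraries by 0.24 ± 0.19, a difference that was not called (adjusted p = 0.58).

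Junb encodes the most abundant JUN protein RNA of these cells; JUNB can oppose JUN at some targets. It had 147 and 144 FPKM in Trpm5-/- cells with LPS, against 152 and 143 FPKM in wild-type cells with LPS. With anti-IgM it had 69.3 and 68.6 FPKM in Trpm5-/- cells, against 93.7 and 86.1 FPKM in wild-type cells, and without stimulus 51.0 and 67.7 FPKM in Trpm5-/- cells, against 81.9 and 78.7 FPKM in wild-type cells. The genotypes overlapped with LPS and were apart in the other conditions, with Trpm5-/- replicate 1 the lowest of the unstimulated libraries. Junb in Trpm5-/- cells was lower by 0.28 ± 0.06 averaged over the conditions (adjusted p = 0.012) and lower by 0.44 ± 0.11 in unstimulated cells (adjusted p = 0.039), whereas the difference was -0.38 ± 0.11 with anti-IgM (adjusted p = 0.083) and -0.02 ± 0.11 with LPS. The unstimulated call was lost with a replicate block (adjusted p = 0.052), with no filter (0.074), with no mean-variance trend (0.092), from the 4 compared libraries alone (0.21) and without Trpm5-/- unstimulated replicate 1 (-0.24, adjusted p = 0.14), wild-type unstimulated replicate 1 (adjusted p = 0.16) or wild-type unstimulated replicate 2 (adjusted p = 0.11).

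LPS raised Junb by 1.29 ± 0.11 in Trpm5-/- cells (adjusted p = 1.6e-06) and by 0.87 ± 0.11 in wild-type cells (adjusted p = 3.4e-05). The LPS response was larger in Trpm5-/- cells by 0.42 ± 0.15, with an adjusted p of 0.38, so the difference between the responses was not called. With anti-IgM the difference was 0.23 ± 0.11 in Trpm5-/- cells and 0.16 ± 0.11 in wild-type cells, neither called. Without Trpm5-/- unstimulated replicate 2 the Trpm5-/- difference was 0.43 and called (adjusted p = 0.0015). Junb overlaps Prdx2, which runs on the opposite strand and stood at 130 to 177 FPKM, and Jun and Jund overlap the antisense genes Junos and Gm11175; strand-aware counting is not stated, so reads of such partners cannot be told apart.

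Jund, a JUN gene known for a high resting level in many cell types, was the one member that fell with both stimuli. It had 34.3 and 28.3 FPKM with LPS in Trpm5-/- cells, where it had 16.7 and 19.1 FPKM with anti-IgM and 37.6 and 51.5 FPKM without stimulus. In wild-type cells its level was 35.8 and 37.4 FPKM with LPS, 20.9 and 21.2 FPKM with anti-IgM and 49.6 and 52.1 FPKM without stimulus. Every stimulated library was below every unstimulated library of its genotype. With anti-IgM Jund fell by 1.26 ± 0.14 in Trpm5-/- cells (adjusted p = 3.2e-05) and by 1.23 ± 0.14 in wild-type cells (adjusted p = 3.6e-05). With LPS it fell by 0.49 ± 0.14 in Trpm5-/- cells (adjusted p = 0.0091) and by 0.46 ± 0.14 in wild-type cells (adjusted p = 0.012). The LPS call in Trpm5-/- cells was lost from the 4 compared libraries alone (adjusted p = 0.059), without Trpm5-/- unstimulated replicate 2 (-0.27, adjusted p = 0.088) and without Trpm5-/- LPS replicate 2 (adjusted p = 0.080); that in wild-type cells was lost without wild-type unstimulated replicate 2 (adjusted p = 0.058) or wild-type LPS replicate 1 (adjusted p = 0.057). No genotype difference of Jund was called, and averaged over the conditions it was -0.22 ± 0.08 (adjusted p = 0.093). Without Trpm5-/- unstimulated replicate 2 this average was -0.29 and called (adjusted p = 0.017).

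Batf, required in B cells for antibody class switching, had the largest response of the 9. It had 373 and 331 FPKM with LPS in Trpm5-/- cells, where it had 41.1 and 46.9 FPKM with anti-IgM and 23.8 and 23.4 FPKM without stimulus. In wild-type cells its level was 309 and 299 FPKM with LPS, 35.9 and 42.1 FPKM with anti-IgM and 29.3 and 22.0 FPKM without stimulus. The 3 conditions did not overlap in either genotype. With LPS Batf rose by 3.84 ± 0.13 in Trpm5-/- cells (adjusted p = 2.6e-09) and by 3.53 ± 0.13 in wild-type cells (adjusted p = 3.4e-09), ratios of mean FPKM of 14.9 and 11.8. With anti-IgM it rose by 0.87 ± 0.13 in Trpm5-/- cells (adjusted p = 0.00025) and by 0.59 ± 0.13 in wild-type cells (adjusted p = 0.0029). With LPS both Trpm5-/- libraries were above both wild-type libraries, by 0.21 ± 0.13, and this was not called (adjusted p = 0.46), nor was the difference between the LPS responses of 0.31 ± 0.18 (adjusted p = 0.58).

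Atf3 had 12.8 and 13.9 FPKM in Trpm5-/- cells with LPS, against 10.2 and 11.0 FPKM in wild-type cells with LPS. With anti-IgM it had 28.5 and 23.6 FPKM in Trpm5-/- cells, against 16.2 and 14.2 FPKM in wild-type cells, and without stimulus 9.99 and 11.2 FPKM in Trpm5-/- cells, against 6.75 and 7.32 FPKM in wild-type cells. The Trpm5-/- libraries were above the wild-type libraries in every condition, without overlap. Atf3 was higher in Trpm5-/- cells by 0.52 ± 0.07 averaged over the conditions (adjusted p = 0.00083), by 0.74 ± 0.12 with anti-IgM (adjusted p = 0.0086) and by 0.53 ± 0.12 without stimulus (adjusted p = 0.031), and the difference with LPS was 0.30 ± 0.12 (adjusted p = 0.23). The anti-IgM call was lost from the 4 compared libraries alone (adjusted p = 0.075), without Trpm5-/- anti-IgM replicate 1 (adjusted p = 0.075) and without wild-type anti-IgM replicate 2 (adjusted p = 0.083). The unstimulated call was lost from the compared libraries alone (adjusted p = 0.14) and when any of the 4 unstimulated libraries was left out (adjusted p = 0.086 and 0.16 without Trpm5-/- replicates 1 and 2, and 0.14 and 0.084 without wild-type replicates 1 and 2).

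Both stimuli raised Atf3, and anti-IgM raised it more. With anti-IgM it rose by 1.22 ± 0.12 in Trpm5-/- cells (adjusted p = 1.5e-05) and by 1.01 ± 0.12 in wild-type cells (adjusted p = 5.8e-05). With LPS it rose by 0.31 ± 0.12 in Trpm5-/- cells (adjusted p = 0.041) and by 0.53 ± 0.12 in wild-type cells (adjusted p = 0.0024). The call with LPS in Trpm5-/- cells was lost under 6 of 12 alternatives, without Trpm5-/- LPS replicate 1 (adjusted p = 0.060) or 2 (adjusted p = 0.17) and without Trpm5-/- unstimulated replicate 1 (adjusted p = 0.20) among them, and with a replicate block (adjusted p = 0.053). Atf3 with LPS was below Atf3 with anti-IgM by 0.91 ± 0.12 in Trpm5-/- cells (adjusted p = 0.00011) and by 0.47 ± 0.12 in wild-type cells (adjusted p = 0.0073); the wild-type call was lost without wild-type anti-IgM replicate 1 (adjusted p = 0.060).

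**Figure D2:**
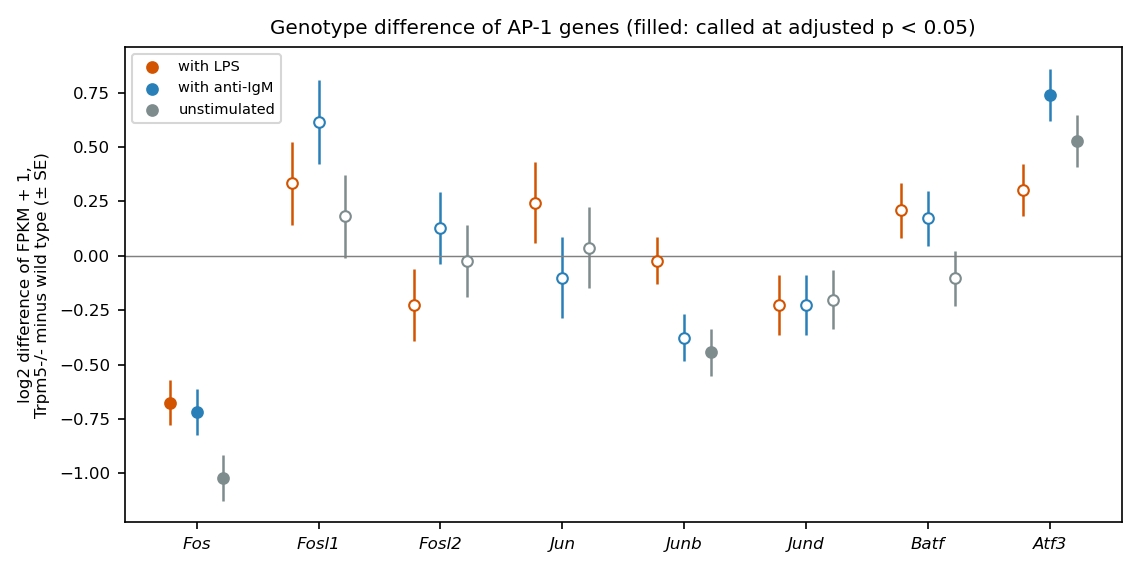
Difference of log2(FPKM + 1), Trpm5-/- minus wild type, of the 8 tested AP-1 genes with LPS, with anti-IgM and without stimulus (left to right within a gene); bars are standard errors of the limma model, and filled points are called at an adjusted p under 0.05. Fos lies between -1.02 and -0.67 in all 3 conditions, and Atf3 between 0.30 and 0.74.

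Set out by stimulus, LPS called 7 of 8 members in Trpm5-/- cells, where 68.7% of all genes were called: 6 rose, beside 34.8% of all genes, and 1 fell, beside 33.8%. In wild-type cells it called 6 of 8 (69.4% of all genes), of which 5 rose, beside 35.0%, and 1 fell, beside 34.4%. Anti-IgM called 5 of 8 in Trpm5-/- cells (49.9% of all genes), of which 4 rose, beside 26.9%, and 1 fell, beside 23.0%. In wild-type cells it also called 5 of 8 (48.6%), of which 4 rose, beside 27.7%, and 1 fell, beside 20.9%. The LPS and anti-IgM comparisons of a genotype share their unstimulated libraries. LPS against anti-IgM, which shares libraries with both, called 6 of 8 in Trpm5-/- cells (51.9% of all genes), 4 higher (28.3%) and 2 lower (23.6%), and 7 of 8 in wild-type cells (52.7%), 5 higher (27.7%) and 2 lower (25.0%). Jun, Junb, Jund and Batf were higher with LPS in both genotypes, Fosl2 and Atf3 were lower in both, and Fosl1 was called higher in wild-type cells by 0.55 ± 0.19 (adjusted p = 0.034), against a difference of 0.27 ± 0.19 in Trpm5-/- cells that was not called. The wild-type Fosl1 call was lost under 6 of 11 alternatives, with adjusted p up to 0.17. With LPS Batf stood above its anti-IgM level by 2.97 ± 0.13 in Trpm5-/- cells and by 2.93 ± 0.13 in wild-type cells, Jun by 2.75 ± 0.19 and 2.41 ± 0.19, Junb by 1.07 ± 0.11 and 0.71 ± 0.11, and Jund by 0.77 ± 0.14 in each. No member was called in the interaction of genotype with LPS or with anti-IgM by limma, where 0.102% of all genes were called for LPS (0.0648% higher, 0.0370% lower) and 0.0278% for anti-IgM (0.00926% higher, 0.0185% lower). These are 11 and 3 genes, beside 1113 and 857 at an unadjusted p under 0.05. At an unadjusted p under 0.05 the LPS interaction held Fos (0.041) and Junb (0.019) of the members and the anti-IgM interaction held none.

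**Figure D3:**
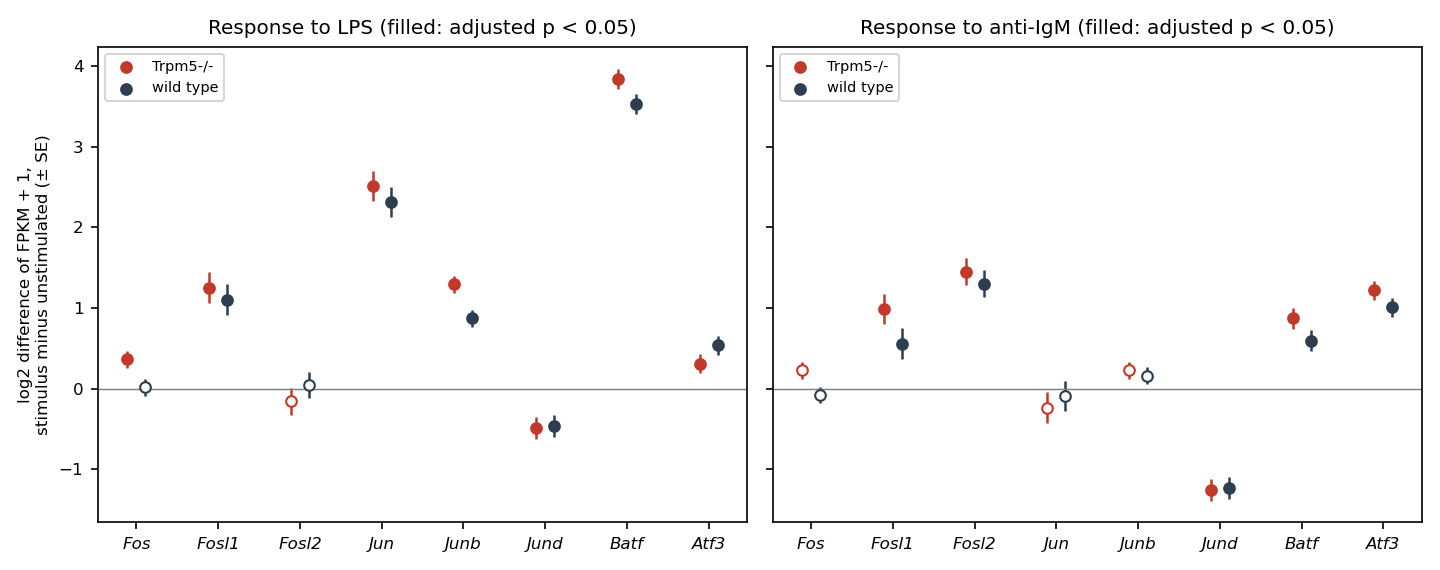
Difference of log2(FPKM + 1), stimulus minus unstimulated, of the 8 tested AP-1 genes for LPS (left) and anti-IgM (right), with Trpm5-/- in red at the left of each pair and wild type in dark blue at the right; bars are standard errors of the limma model, and filled points are called at an adjusted p under 0.05. Batf and Jun rose most with LPS, Fosl2 and Atf3 most with anti-IgM, and Jund fell with both in both genotypes.

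Summed over its 4 genes, the FOS subfamily had 14.5 and 13.1 FPKM in Trpm5-/- cells with LPS, against 18.5 and 17.9 FPKM in wild-type cells with LPS. With anti-IgM the sum was 16.2 and 16.3 FPKM in Trpm5-/- cells, against 19.3 and 19.4 FPKM in wild-type cells, and without stimulus 9.34 and 8.06 FPKM in Trpm5-/- cells, against 14.8 and 16.2 FPKM in wild-type cells. The sums of the genotypes did not overlap in any condition. The ratio of the mean sums, Trpm5-/- over wild type, was 0.561 without stimulus, 0.758 with LPS and 0.839 with anti-IgM. Fos made up 55.0 ± 0.6% of the sum in Trpm5-/- cells and 69.8 ± 4.3% in wild-type cells with LPS, 41.8 ± 1.4% and 61.0 ± 2.7% with anti-IgM, and 65.3 ± 3.6% and 80.9 ± 0.1% without stimulus (SD, n = 2 each). Fosl1 made up 34.3 ± 0.1% in Trpm5-/- cells and 19.6 ± 1.9% in wild-type cells with LPS, and Fosl2 33.0 ± 2.7% and 24.9 ± 1.0% with anti-IgM. The sums and shares are a description and were not tested.

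The JUN subfamily summed to 247 and 246 FPKM in Trpm5-/- cells with LPS, against 249.6 and 237 FPKM in wild-type cells with LPS. With anti-IgM it summed to 96.3 and 96.5 FPKM in Trpm5-/- cells, against 123 and 119.5 FPKM in wild-type cells, and without stimulus to 97.9 and 133 FPKM in Trpm5-/- cells, against 142 and 142 FPKM in wild-type cells. The genotypes overlapped with LPS and were apart in the other conditions, with unstimulated Trpm5-/- replicate 1 low. Jun made up 28.3 ± 2.1% of the sum in Trpm5-/- cells and 24.2 ± 0.7% in wild-type cells with LPS, against 9.96 ± 0.69% and 7.79 ± 0.58% without stimulus, while Jund made up 12.7 ± 1.7% and 15.1 ± 1.0% with LPS, against 38.6 ± 0.2% and 35.7 ± 1.2% without stimulus (SD, n = 2 each). The JUN sum was several times the FOS sum in every group.

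**Figure D4:**
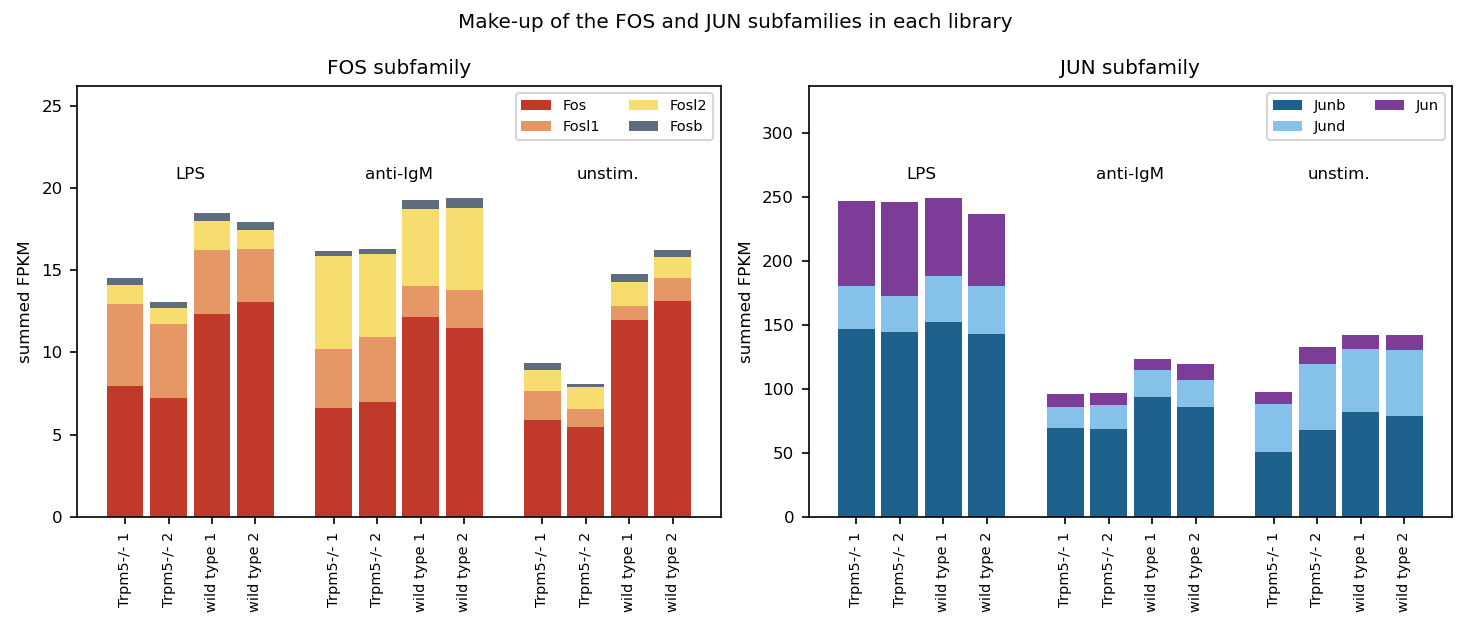
Stacked FPKM (linear axis from 0) of the FOS genes (left) and JUN genes (right) in each of the 12 libraries, ordered by condition with the Trpm5-/- libraries left of the wild-type libraries. The FOS sum is lower in the Trpm5-/- libraries of each condition, and the JUN sum is between 237 and 249.6 FPKM in all 4 LPS libraries and between 96.3 and 142 FPKM in the others.

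The other genes around AP-1 were read from lists. In the genotype difference averaged over the conditions, to which the following list counts refer unless a stimulus is named, 10.2% of all genes tested were called higher, 5.88% lower and 16.0% in either direction, and the median difference of all genes was 0.01. Here 25 of 33 other basic leucine zipper genes were tested, and 5 were called higher and 3 lower in Trpm5-/- cells. Of these, Xbp1, a factor of the unfolded protein response, was higher by 0.20 ± 0.03 (adjusted p = 0.0021) and Nfe2l2, the oxidative stress factor NRF2, by 0.23 ± 0.04 (adjusted p = 0.0052), while Dbp was lower by 0.60 ± 0.11 (adjusted p = 0.0051) and Nfe2, a factor of the erythroid and platelet lineages, by 0.50 ± 0.10 (adjusted p = 0.0070). The median difference of the list was 0.08. With the stimuli, Mafk, a small MAF protein, rose with LPS by 1.31 ± 0.07 in Trpm5-/- cells (adjusted p = 6.8e-08) and by 1.21 ± 0.07 in wild-type cells (adjusted p = 1.2e-07), and Bach2, a repressor that competes with AP-1 in lymphocytes, fell with LPS by 1.65 ± 0.10 in Trpm5-/- cells (adjusted p = 2.1e-07) and by 1.74 ± 0.10 in wild-type cells (adjusted p = 1.4e-07). With LPS 12 of the 25 rose and 7 fell in Trpm5-/- cells, beside 34.8% and 33.8% of all genes, and 11 rose and 8 fell in wild-type cells, beside 35.0% and 34.4%. With anti-IgM 14 rose and 1 fell in Trpm5-/- cells, beside 26.9% and 23.0% of all genes, and 13 rose and 1 fell in wild-type cells, beside 27.7% and 20.9%.

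Of 32 tested genes of the MAP kinase route to AP-1, 4 were called higher and 3 lower in Trpm5-/- cells averaged over the conditions, beside 10.2% and 5.88% of all genes (list median -0.05). Map2k3, a kinase that activates p38, was higher by 0.42 ± 0.04 (adjusted p = 7.1e-05) and Rps6ka1 by 0.28 ± 0.05 (adjusted p = 0.0045), while Mef2c was lower by 0.48 ± 0.05 (adjusted p = 0.00015) and Mapk11, a p38 gene, by 0.82 ± 0.15 (adjusted p = 0.0045). Of 16 tested partners and turnover factors, 1 was called higher and 2 lower, a total near the 16.0% of all genes: Irf4, the partner of BATF, was higher by 0.21 ± 0.04 (adjusted p = 0.0041), Ets1 lower by 0.42 ± 0.04 (adjusted p = 0.00014) and Irf8, the other BATF partner, lower by 0.17 ± 0.03 (adjusted p = 0.0037). With LPS Irf4 rose by 2.24 ± 0.06 in Trpm5-/- cells (adjusted p = 1.4e-09) and by 2.52 ± 0.06 in wild-type cells (adjusted p = 7.0e-10), and Irf8 by 0.82 ± 0.05 (adjusted p = 2.2e-07) and 1.03 ± 0.05 (adjusted p = 4.0e-08), while Ets1 fell by 3.36 ± 0.07 (adjusted p = 2.7e-10) and 3.06 ± 0.07 (adjusted p = 5.2e-10). With anti-IgM Irf4 rose by 1.50 ± 0.06 in Trpm5-/- cells (adjusted p = 8.9e-08) and by 1.89 ± 0.06 in wild-type cells (adjusted p = 3.7e-08).

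Among 20 tested genes known from other cells as AP-1 targets, 6 were called higher and 1 lower in Trpm5-/- cells averaged over the conditions, beside 10.2% and 5.88% of all genes, with a list median of 0.29. The chemokine genes Ccl3 and Ccl4 were higher by 0.78 ± 0.04 (adjusted p = 2.8e-06) and 0.72 ± 0.04 (adjusted p = 3.8e-06), and Hmox1, the haem oxygenase gene, by 0.90 ± 0.06 (adjusted p = 1.3e-05), while Cd69, an early activation marker, was lower by 0.30 ± 0.03 (adjusted p = 9.7e-05). Of 25 tested immediate early genes outside AP-1, 4 were called higher and 11 lower, beside the same shares (list median -0.14). Egr1, a zinc finger factor induced together with Fos, was lower by 0.68 ± 0.04 (adjusted p = 7.8e-06), Zfp36l1, which binds AU-rich RNA, by 0.38 ± 0.04 (adjusted p = 0.00022) and Ier2 by 0.35 ± 0.04 (adjusted p = 0.00022), while the kinase gene Sik1 was higher by 0.80 ± 0.08 (adjusted p = 0.00013).

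The heat shock genes were listed because handling and dissociation of cells can raise both them and immediate early genes. Of 14 tested, 9 were called higher and 1 lower in Trpm5-/- cells averaged over the conditions, beside 10.2% and 5.88% of all genes, with a list median of 0.22. Hspa8 was higher by 0.38 ± 0.03 (adjusted p = 3.7e-05), Hspa5 by 0.26 ± 0.03 (adjusted p = 0.00040), Hspd1 by 0.29 ± 0.04 (adjusted p = 0.00046) and Hsp90aa1 by 0.29 ± 0.04 (adjusted p = 0.00078). The lower one was Hspa1a, a stress-induced HSP70 gene, named after its values were seen, by 0.30 ± 0.07 (adjusted p = 0.019). With LPS Hspa1a had 10.9 and 9.68 FPKM in Trpm5-/- cells, against 15.2 and 18.0 FPKM in wild-type cells, and was lower by 0.64 ± 0.13 (adjusted p = 0.023), a call lost under 5 of 12 alternatives, with adjusted p up to 0.17. Averaged over the conditions, the difference was -0.026 ± 0.081 for Hspa1b, its near-identical copy, with which it may share reads, and 0.04 ± 0.05 for Dnajb1, an HSP40 gene, neither called. The list summed to 8870 to 9202 FPKM in Trpm5-/- cells and 7672 to 7949 FPKM in wild-type cells with LPS, 6679 to 6746 and 5456 to 5517 FPKM with anti-IgM, and 3476 to 3505 and 2680 to 2755 FPKM without stimulus. Much of the sum is Hspa8 (847 to 3500 FPKM over the 12 libraries) and Hsp90ab1 (833 to 2314 FPKM), both known as constitutive chaperone genes. The lower Fos and the higher Atf3 of Trpm5-/- cells stood beside a higher heat shock sum in all conditions. Averaged over the conditions, 9 of the 14 heat shock genes were called higher, 1 lower and 4 not. The part of handling in the Fos and Atf3 differences was not tested.

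Markers of cell identity also moved with genotype. The pan-B markers summed to 13042 to 13540 FPKM in Trpm5-/- cells and 16812 to 17590 FPKM in wild-type cells with LPS, 12930 to 13190 and 17657 to 17789 FPKM with anti-IgM, and 18232 to 18282 and 22117 to 22193 FPKM without stimulus; averaged over the conditions 0 of 11 were called higher and 9 lower in Trpm5-/- cells by limma. The 14 marginal zone markers gave 7 higher and 0 lower, and the 9 follicular B cell markers 0 higher and 6 lower. The marginal zone list summed to 833 to 874 FPKM in Trpm5-/- cells and 605 to 629 FPKM in wild-type cells with LPS. It summed to 1070 to 1100 and 859 to 866 FPKM with anti-IgM, and 1525 to 1540 and 1203 to 1232 FPKM without stimulus. The follicular list summed to 2992 to 3042 and 3473 to 3619 FPKM with LPS, in the same order of genotypes. With anti-IgM it had 1031 to 1057 and 1217 to 1222 FPKM, and without stimulus 1314 to 1353 and 1627 to 1680 FPKM. The counts of this paragraph stand beside 10.2% of all genes called higher and 5.88% lower in the same average. The 7 erythroid genes in the files summed to 276 to 277 FPKM in Trpm5-/- cells and 454 to 538 FPKM in wild-type cells with LPS, 249 to 307 and 379 to 521 FPKM with anti-IgM, and 472 to 510 and 684 to 710 FPKM without stimulus, 0 called higher and 3 lower. The 12 macrophage genes summed to 26.5 to 27.0 FPKM in Trpm5-/- cells and 19.6 to 24.0 FPKM in wild-type cells with LPS, 24.7 to 26.4 and 20.0 to 22.3 FPKM with anti-IgM, and 29.9 to 31.8 and 35.6 to 44.9 FPKM without stimulus. Of these, 7 were tested, with 2 called higher and 2 lower. The 7 plasma cell markers, among them Irf4 and Xbp1, summed to 398 to 403 FPKM in Trpm5-/- cells and 353 to 373 FPKM in wild-type cells with LPS, 358 to 370 and 308 to 325 FPKM with anti-IgM, and 237 to 242 and 182 to 191 FPKM without stimulus. Of these, 6 were tested, with 3 called higher and 0 lower. Of the RNAs listed as signs of RNA quality, 4 are in the files, and they summed to 137 to 155 FPKM in Trpm5-/- cells and 144 to 169 FPKM in wild-type cells with LPS, 205 to 213 and 259 to 295 FPKM with anti-IgM, and 298 to 306 and 390 to 433 FPKM without stimulus. Of these, the nuclear RNAs Malat1 and Neat1 were called lower averaged over the conditions, by 0.32 ± 0.06 (adjusted p = 0.0039) and 0.20 ± 0.06 (adjusted p = 0.043), and 0 were called higher. The part of any of these in the Fos, Junb, Fosl1 and Atf3 differences was not tested.

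By Pearson r of log2(FPKM + 1) over the 12 libraries, which share 6 groups, the genes most like Fos were Adat2 (0.95), Clec2d (0.91) and Pxdc1 (0.89). Adat2, a subunit of a tRNA-editing deaminase, averaged 4.63 FPKM in Trpm5-/- cells and 20.4 FPKM in wild-type cells with LPS, 5.32 and 15.8 FPKM with anti-IgM, and 2.57 and 11.6 FPKM without stimulus, so that it had, like Fos, its main contrast between the genotypes. The genes most like Jun were Ebi3, a subunit of interleukin-27 (0.99), Cxcr5 (0.99) and Ccl22 (0.99), all high with LPS alone. Those most like Batf were Pum2 (0.996), Cdk5r1 (0.996) and Ddx24 (0.995), and those most like Junb were Cherp (0.98), Ddx47 (0.98) and Nfkb2 (0.97). Those most like Atf3 were Ahr, the aryl hydrocarbon receptor gene (0.96), Vps29 (0.95) and Rcan1, a target and inhibitor of calcineurin (0.95). Ahr averaged 29.2 FPKM in Trpm5-/- cells and 13.1 FPKM in wild-type cells with LPS, 63.7 and 37.3 FPKM with anti-IgM, and 14.7 and 5.88 FPKM without stimulus. Among the members themselves, the closest to Fos was Junb (r = 0.45) and the furthest Atf3 (r = -0.43). These r describe 12 libraries of 6 groups and carry no test.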

How the data were processed

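The 12 libraries were made from total RNA with a SMART-Seq HT kit and a Nextera library kit, per the labels' protocols. Per the submitters' processing notes the authors used Cufflinks 2.2.1, SAMtools 0.1.19, Bowtie2 2.2.3 and TopHat2 2.0.13 with the mm10 build. Not given in the sources used here are the annotation, strand setting and mapped totals. Each file lists symbols with a single value and no unit. The deposited values were taken as FPKM that the authors made with Cufflinks, since that tool is named in the submitters' processing notes. For Trpm5 and the 9 members, the only genes so examined, each value is a whole multiple of a step set by gene and library. Fragments per library were read from those steps as the smallest whole numbers that fitted, and they cover counting error only.

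A group-means model was fitted to log2(FPKM + 1) with limma 3.58.1 (R 4.3.3), using its trended eBayes on 6 residual degrees of freedom, over 10797 genes that reached 1 FPKM in 2 or more libraries, and 12 comparisons were adjusted by Benjamini-Hochberg within each. The script was tested on simulated data. The values were not scaled again: median ratios of the libraries lay between 0.995 and 1.02. Errors are standard errors of the model or, beside FPKM and shares, standard deviations of 2 libraries.

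The members and the 21 gene lists were chosen with earlier results of these data known. All members are named; of 6 lists, up to 4 called genes of smallest adjusted p per comparison described; and for Fos, Jun, Junb, Batf and Atf3 the 3 genes of highest r among genes with a mean of at least 5 FPKM, without predicted gene models. Positions are GENCODE genes on mm10, and promoters are RefSeq on GRCm38.p6, with 8 of 9 members matched. Alternatives were a pseudocount of 0.1, no filter, a mean of at least 5 FPKM, median-ratio and quantile scaling, no trend, the compared libraries alone, a replicate block, and each library left out.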

Additional observations from a re-analysis of the deposited data

How the results depend on the processing

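Of 46 calls of an AP-1 gene, 32 kept their direction and their side of the threshold under every alternative tried, 14 lost the call under at least 1, and 0 changed direction. With a spread estimated from the compared libraries alone the number of members called was 0 for the genotype difference with LPS, with anti-IgM and without stimulus, and 4 for LPS in Trpm5-/- cells; fewer libraries enter these fits. With a mean of at least 5 FPKM the number called was 3 for anti-IgM in Trpm5-/- and in wild-type cells, since Fosl1 and Fosl2 are then not tested. With 1 library left out, the number called was 0 to 1 for the genotype difference with LPS, 1 to 2 with anti-IgM and 1 to 2 without stimulus. The number of all genes called ran over all alternatives from 21 to 425 for the genotype difference with LPS, beside 388 as reported, from 116 to 420 with anti-IgM, beside 413, and from 51 to 719 without stimulus, beside 660.

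Among the 76 member results followed over the alternatives, only values that had not been called were reversed. The wild-type LPS difference of Fos was -0.0034 with median-ratio scaling and -0.044 to 0.081 with a library left out. The wild-type LPS difference of Fosl2 was -0.16 to 0.24 with a library left out. The Trpm5-/- LPS difference of Fosl2 was 0.25 with quantile normalization, and the wild-type anti-IgM difference of Junb was -0.059 with quantile normalization. With a library left out the anti-IgM difference of Jun was -0.50 to 0.033 in Trpm5-/- cells and -0.33 to 0.14 in wild-type cells. In such fits the genotype difference of Junb with LPS was -0.065 to 0.021 and that of Fosl1 without stimulus -0.028 to 0.39. Reversals of the other uncalled member differences are not covered. Of 216 named results of genes on other lists, 42 lost the call under at least 1 alternative and 0 changed direction.

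The groups share replicate numbers, but libraries of the same number deviated together only weakly and with either sign. The correlation of deviations between groups ran from -0.17 to 0.20, and the numbers were not taken as pairs. With the replicate number as a block, 625 genes were called in the unstimulated genotype difference, 377 with LPS, 413 with anti-IgM and 1741 averaged over the conditions, and the members called were 2, 1, 2 and 3. Groups of 2 libraries limit every test, and Fosb (8 to 22 fragments a library) and Fosl1 (16 to 76) also by depth.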
